A study of Mus musculus with 6 samples.

Results

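The Hippo core kinases and scaffolds are a set of 10 genes, picked by symbol for their role in the pathway, with earlier results of these data known, out of 21929 genes measured in L929 mouse fibroblasts. The set holds the MST kinase genes Stk3 and Stk4, the LATS kinase genes Lats1 and Lats2, the adaptor genes Sav1, Mob1a and Mob1b, the upstream scaffold genes Nf2 and Wwc1, and the kinase gene Map4k4. Each symbol stood for 1 row of the table, so all 10 were found. L929 is an established mouse fibroblast line, and all libraries came from its co-culture with tumour cells. Biotin-positive L929 cells (3 libraries) are labelled as having interacted with MFCSTCL, an abbreviation the labels do not explain. Biotin-negative L929 cells (3 libraries) are labelled as having had no interaction with the tumour. The labels name no genotype, drug or time for either group, and no library of L929 cells kept alone.

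The Hippo pathway is a kinase relay that restrains growth. MST kinases, held by the scaffold SAV1, phosphorylate LATS kinases and their MOB1 partners, and LATS kinases phosphorylate the coactivators YAP and TAZ, which then stay out of the nucleus or are degraded. NF2 and the WWC proteins act at the cell cortex to bring LATS to its activators, and MAP4K4 can phosphorylate LATS beside the MST kinases. In fibroblasts the pathway is known to respond to cell density, adhesion and tension. Some inhibitors of YAP, LATS2 among them, are themselves known as YAP targets.

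Levels are in FPKM, which corrects for transcript length and sequencing output, so that genes can be compared with each other. A difference is Biotin-positive minus Biotin-negative in log2(FPKM + 1), a scale that shrinks the changes of genes with low levels. "Rose" and "fell" mean higher or lower in the Biotin-positive group at a limma adjusted p under 0.05, over the 11029 genes that reached 1 FPKM in 3 or more libraries. FPKM sums were between 337771 and 340511 in the Biotin-negative and between 349753 and 356681 in the Biotin-positive libraries, and reads per library are unknown. Pearson correlations of the log2 values across tested genes were 0.994 to 0.996 within a group and 0.927 to 0.930 across groups. The mitochondrial genome gave 3.60 to 3.92% of the FPKM of a Biotin-negative and 3.75 to 3.88% of a Biotin-positive library. The labels do not state whether each library was a culture of its own, and the p-values therefore cover only the spread among these libraries, which may be technical. All 6 libraries carry the same batch label.

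Of 14 fibroblast markers 10 were tested, 8 of them lower and 2 higher, and their summed level was 4441 to 4700 FPKM in the Biotin-negative and 2886 to 2969 FPKM in Biotin-positive libraries. The highest of them in Biotin-negative cells, Fn1 (fibronectin), fell from a mean of 2017 to 172 FPKM, while vimentin, Vim, the highest in Biotin-positive cells, rose from 658 to 1418 FPKM. Fn1 alone made the sum lower, and the other fibroblast markers together were higher in Biotin-positive cells. Thy1, Dcn, Lum and Fap stayed below 1 FPKM in every library. Of 24 epithelial markers only the keratin genes Krt7 and Krt8 were tested, with Krt7 at means of 0.236 and 24.7 FPKM and Krt8 at 0.0362 and 20.8 FPKM. Both reached testing only through the Biotin-positive libraries, so they could only come out higher. The summed epithelial level was 2.50 to 2.87 FPKM against 46.9 to 48.9 FPKM. The other 22 epithelial markers were below 1 FPKM in every library, with Krt5 and Krt20 at 0 and the defining genes Epcam and Cdh1 at group means of 0 and 0.0142 and of 0.0118 and 0 FPKM. Of 8 leukocyte markers 3 were tested, Lyz2 and Cd79a higher and Cd68 lower, with summed levels of 9.13 to 11.08 and 11.08 to 13.09 FPKM. Cd79a reached testing only through the Biotin-positive libraries, and the Cd68 groups overlapped and its call was lost in 6 of 16 alternatives. All 5 endothelial markers were below 1 FPKM, with sums of 0.186 to 0.251 and 0.451 to 0.811 FPKM. The part of these marker shifts in the differences below was not tested.

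Among the 10 genes, Wwc1, Stk4, Lats2, Nf2 and Mob1a rose, Map4k4 fell, and Stk3, Lats1, Sav1 and Mob1b did not pass. The share of genes that rose was 50% here, against 37.8% of all tested genes, and the share that fell was 10.0%, against 36.1%. Wwc1 reached testing only through the Biotin-positive libraries, and without it 4 of 9 genes rose, or 44.4%, and 1 fell. In either direction 6 of 10 passed, or 60.0%, which is below the 73.9% of all tested genes. The Biotin-positive and Biotin-negative libraries did not overlap for 6 of the 10 genes, against 76.9% of all tested genes. The median difference was 0.096 over the 10 genes and 0.0099 over all tested genes, and the median size of a difference was 0.26 and 0.31. The median of the 10 was 0.16 without Biotin-negative replicate 2, 0.049 after quantile normalization and 0.040 after rescaling to an equal FPKM sum. After quantile normalization 4 of the genes rose and 2 fell, and after rescaling to an equal FPKM sum 5 rose and 2 fell. In these bulk libraries fewer expressing cells and less RNA per cell cannot be told apart.

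**Figure D1:**
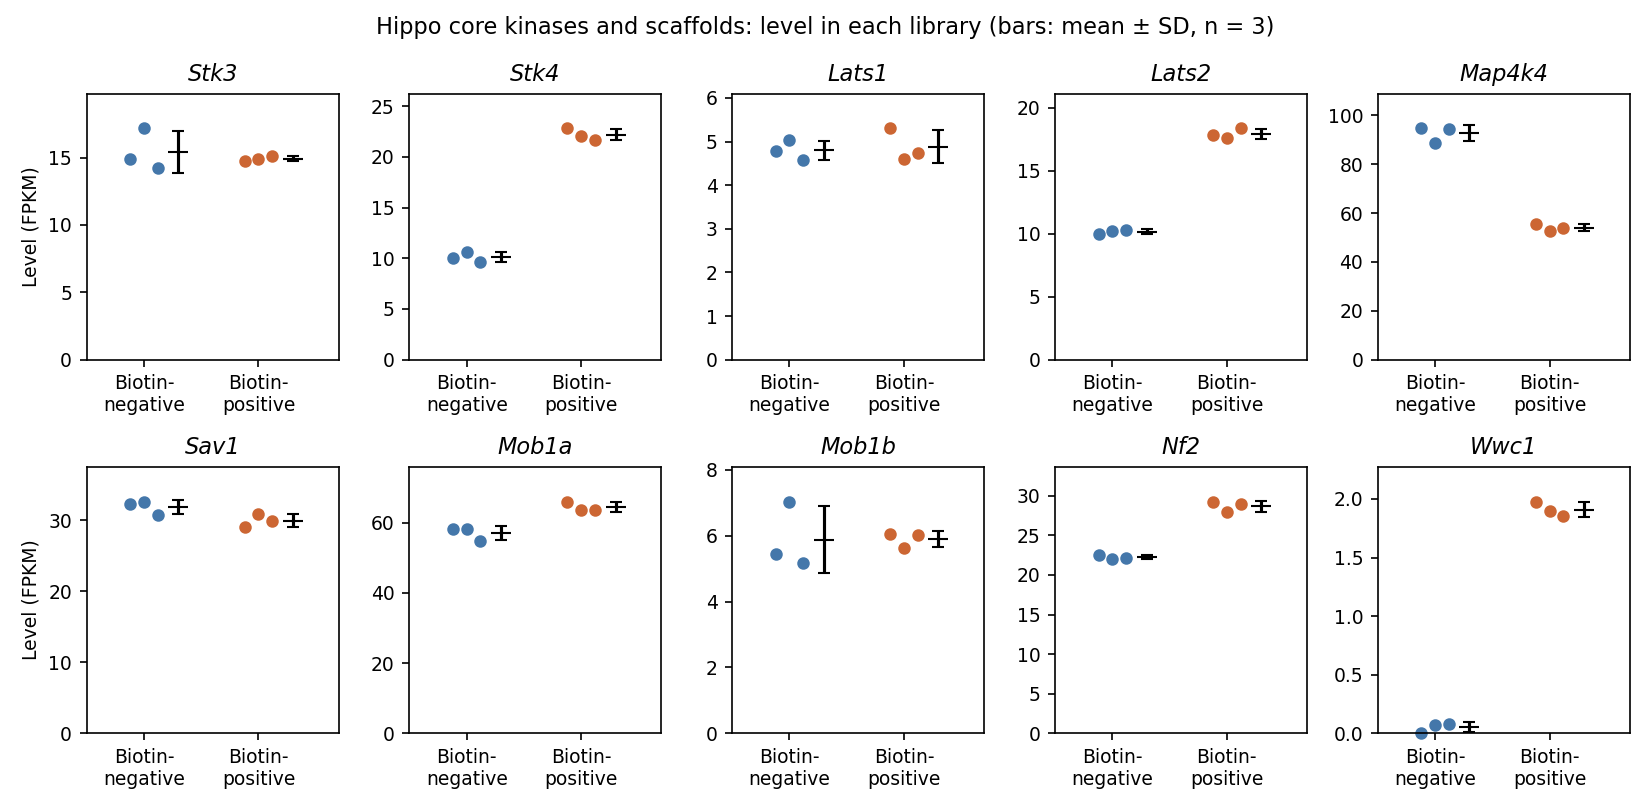
Level (FPKM, linear axes from 0) of each of the 10 genes in the 3 Biotin-negative (blue) and 3 Biotin-positive (orange) libraries, with mean ± SD as black bars. The groups are apart for Stk4, Lats2, Map4k4, Mob1a, Nf2 and Wwc1 and overlap for Stk3, Lats1, Sav1 and Mob1b.

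The promoters of the 3 genes with a TEAD motif and of the 2 genes with the largest rises are printed here, since LATS2 belongs to the known YAP-TEAD feedback. RefSeq start sites on GRCm38.p6 were given for 8 of the 10 genes, 10 start sites in all, each with 250 bases before and 50 after the start. The TEAD motif GGAATG, on either strand, was in 3 of these 10 windows and in 14.7% of 32851 RefSeq promoter windows of the same length. The AP-1 motif TGANTCA was in 0 of the 10 windows and in 7.81% of all. Capitals mark the TEAD motif, read as CATTCC where it lies on the other strand.
Lats2, chr14:57746074-57746373, minus strand: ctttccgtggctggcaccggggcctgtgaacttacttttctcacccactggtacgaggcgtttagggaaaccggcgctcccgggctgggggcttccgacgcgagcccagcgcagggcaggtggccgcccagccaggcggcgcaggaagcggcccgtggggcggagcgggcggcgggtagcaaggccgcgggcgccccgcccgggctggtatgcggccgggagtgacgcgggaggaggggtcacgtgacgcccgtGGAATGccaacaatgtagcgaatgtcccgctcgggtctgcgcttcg
Mob1a, chr6:83325789-83326088, plus strand: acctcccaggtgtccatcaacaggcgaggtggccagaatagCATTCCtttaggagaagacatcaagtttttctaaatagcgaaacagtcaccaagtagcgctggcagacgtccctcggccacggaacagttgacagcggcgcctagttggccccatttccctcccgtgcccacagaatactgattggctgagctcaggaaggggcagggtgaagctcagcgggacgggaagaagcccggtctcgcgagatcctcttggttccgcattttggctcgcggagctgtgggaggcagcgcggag
Sav1, chr12:69986953-69987252, minus strand: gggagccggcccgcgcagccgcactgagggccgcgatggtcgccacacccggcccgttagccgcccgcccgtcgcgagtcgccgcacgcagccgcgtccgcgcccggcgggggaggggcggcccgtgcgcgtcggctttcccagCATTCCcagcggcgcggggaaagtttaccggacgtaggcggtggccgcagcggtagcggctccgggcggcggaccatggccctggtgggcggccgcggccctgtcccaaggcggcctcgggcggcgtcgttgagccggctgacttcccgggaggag
Wwc1, chr11:35980478-35980777, minus strand: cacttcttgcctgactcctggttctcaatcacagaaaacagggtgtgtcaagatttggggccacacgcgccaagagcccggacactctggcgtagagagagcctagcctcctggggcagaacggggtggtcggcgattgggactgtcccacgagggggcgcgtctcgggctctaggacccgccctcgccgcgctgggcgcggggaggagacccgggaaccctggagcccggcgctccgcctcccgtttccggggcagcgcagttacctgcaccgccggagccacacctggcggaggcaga
Stk4, chr2:164073888-164074187, plus strand: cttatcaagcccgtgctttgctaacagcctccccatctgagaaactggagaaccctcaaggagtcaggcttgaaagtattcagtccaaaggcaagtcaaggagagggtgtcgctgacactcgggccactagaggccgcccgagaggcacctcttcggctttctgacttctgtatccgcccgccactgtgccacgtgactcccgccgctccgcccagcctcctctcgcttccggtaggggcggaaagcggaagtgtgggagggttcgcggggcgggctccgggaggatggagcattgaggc
The motif began 4 bases after the start site in the printed Lats2 window, 209 bases before it in Mob1a and 106 bases before it in Sav1. Lats2 has 2 RefSeq start sites, and the window of the other held no TEAD motif. Of these 3 genes Lats2 and Mob1a rose and Sav1 did not pass. The printed windows of Wwc1 and Stk4 held no match, and both genes rose. The RefSeq starts printed for Stk4 and Lats2 lie 3816 and 12265 bases inside the genes as the file places them. A match describes these letters and shows no binding.

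The MST kinases start the core relay. Stk4, which encodes MST1 (chromosome 2, 164070322 to 164155524, on GRCm38 as for all genes here), stood at 10.0, 10.6 and 9.67 FPKM in Biotin-negative libraries, against 22.8, 22.1 and 21.7 FPKM in Biotin-positive libraries. Every Biotin-positive library was above every Biotin-negative one, and the ratio of the means was 2.20. The difference was 1.06 (SE 0.047, limma adjusted p = 1.70e-07), larger in size than that of 92.6% of tested genes. Tomm34, a gene on the opposite strand that overlaps Stk4 by 848 bases, rose as well, from a mean of 27.1 to 35.1 FPKM, and whether the counting used strand is not given in the sources used here.

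Stk3, which encodes the paralog MST2 (chromosome 15, 34875496 to 35178921), stood at 14.9, 17.2 and 14.2 FPKM in Biotin-negative libraries, against 14.7, 14.9 and 15.1 FPKM in Biotin-positive libraries. The groups overlapped, with Biotin-negative replicate 2 the highest of all 6. The difference was -0.043, with a 95% interval from -0.19 to 0.11 (limma adjusted p = 0.574). Stk3 was the higher MST gene in every Biotin-negative library and Stk4 in every Biotin-positive one. The Stk4 share of the summed Stk3 and Stk4 FPKM was 40.2, 38.2 and 40.5% in the Biotin-negative and 60.8, 59.7 and 59.0% in the Biotin-positive libraries. The shares did not overlap and their means differed by 20.2 percentage points (two-sided exact permutation p = 0.1, the smallest that 3 against 3 libraries allow). The sum of both genes was 25.5 ± 2.03 FPKM (SD, n = 3) in Biotin-negative and 37.1 ± 0.389 FPKM (SD, n = 3) in Biotin-positive cells.

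The LATS kinases are the step that acts on YAP and TAZ directly. Lats2 (chromosome 14, 57689662 to 57758388) stood at 9.93, 10.2 and 10.3 FPKM in Biotin-negative libraries, against 17.8, 17.6 and 18.4 FPKM in Biotin-positive libraries. The groups did not overlap, the ratio of the means was 1.77 and the difference 0.76 (SE 0.041, limma adjusted p = 5.31e-07). The annotated gene Gm49361 lies over 56442 bases of Lats2 on the same strand and matches 56.9% of its longest coding transcript. Gm49361 is listed at 0 in every library, and how reads that fit both genes were assigned is not given in the sources used here.

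Lats1 (chromosome 10, 7681214 to 7716460) stood at 4.79, 5.03 and 4.58 FPKM in Biotin-negative libraries, against 5.31, 4.60 and 4.73 FPKM in Biotin-positive libraries. The groups overlapped, and the difference was 0.019 with a 95% interval from -0.13 to 0.17 (limma adjusted p = 0.804). Lats2 was the higher LATS gene in all 6 libraries. Its share of the pair's FPKM was 67.5, 67.1 and 69.2% in the Biotin-negative and 77.0, 79.3 and 79.5% in the Biotin-positive libraries, a difference of means of 10.7 percentage points (two-sided exact permutation p = 0.1, again the smallest possible). Together the LATS genes stood at 14.9 ± 0.289 FPKM and 22.8 ± 0.509 FPKM (SD, n = 3 each), a ratio of 1.53. Yap1, the gene of their substrate, rose further, from 28.5 ± 0.429 to 138 ± 5.00 FPKM (SD, n = 3 each). The ratio of Yap1 to the summed LATS FPKM was 1.95, 1.88 and 1.89 in the Biotin-negative and 6.22, 6.11 and 5.82 in the Biotin-positive libraries, with no overlap (two-sided exact permutation p = 0.1). This ratio restates the levels just given and is no separate result.

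The MOB1 and SAV1 adaptors hold the kinases together. Mob1a (chromosome 6, 83326016 to 83343776) stood at 58.2, 58.4 and 54.8 FPKM in Biotin-negative libraries, against 66.0, 63.7 and 63.7 FPKM in Biotin-positive libraries. The groups did not overlap, but the ratio of the means was only 1.13 and the difference 0.17 (SE 0.035, limma adjusted p = 0.00211). Quantile normalization reduced the difference to 0.060 and the call was lost (limma adjusted p = 0.135, in a range from 0.00162 over 16 alternatives).

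Mob1b (chromosome 5, 88720855 to 88764220) encodes a closely related MOB1 protein and was at 5.44, 7.03 and 5.17 FPKM in Biotin-negative libraries, against 6.06, 5.63 and 6.03 FPKM in Biotin-positive libraries. The groups overlapped and Biotin-negative replicate 2 was again the highest. The difference was 0.015, with a 95% interval from -0.21 to 0.24 (limma adjusted p = 0.897), the widest interval of the 10 genes. Mob1b made up 8.55, 10.8 and 8.62% of the MOB1 sum in the Biotin-negative and 8.41, 8.11 and 8.64% in the Biotin-positive libraries (two-sided exact permutation p = 0.3), so nearly all MOB1 transcript was Mob1a in both groups.

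Sav1 (chromosome 12, 69965012 to 69987002), the gene of the scaffold that joins with MST kinases, was at 32.3, 32.6 and 30.7 FPKM in Biotin-negative libraries, against 29.1, 30.9 and 29.8 FPKM in Biotin-positive libraries. The groups overlapped by 1 library on each side. The difference was -0.087 with a 95% interval from -0.18 to 0.0023 (limma adjusted p = 0.0718). It passed after quantile normalization (-0.13, adjusted p = 0.0202), after rescaling to an equal FPKM sum (-0.15, adjusted p = 0.00854) and without Biotin-negative replicate 3 (-0.11, adjusted p = 0.0458). Sav1 overlaps Atl1, on the opposite strand, by 1406 bases, and Atl1 rose from a mean of 2.07 to 3.13 FPKM. Atl1 matches 52.9% of the longest coding transcript of Sav1, and how reads that fit both genes were assigned is not given in the sources used here.

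**Figure D2:**
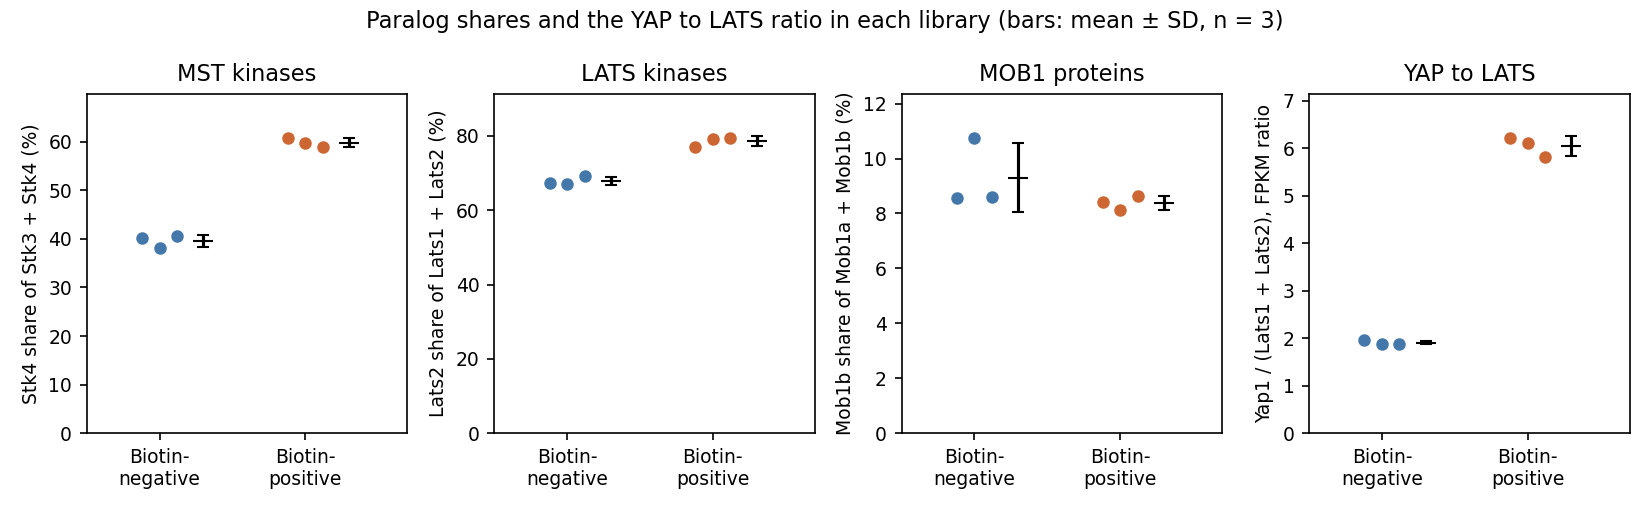
Share of Stk4, Lats2 and Mob1b in the FPKM of their paralog pair (%) and the ratio of Yap1 to summed LATS FPKM, by library, with mean ± SD as black bars (n = 3). Stk4 moves from 38.2 to 40.5% up to 59.0 to 60.8% of its pair, and Mob1b stays between 8.11 and 10.8%.

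How far reads of paralogs can be told apart depends on their sequence. In GENCODE vM21 coding sequences the identity was 76.7% for Stk3 and Stk4, 67.2% for Lats1 and Lats2 and 79.6% for Mob1a and Mob1b. The longest identical runs in these alignments were 23, 22 and 20 bases. Near-identical matches in other genes, of at least 100 bases and 98% identity, were found for none of the 10 genes except Lats2 (Gm49361) and Sav1 (Atl1), which share their loci with those genes.

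The cortical scaffolds feed the relay. Nf2 (chromosome 11, 4765845 to 4849536), which encodes merlin, stood at 22.5, 22.1 and 22.2 FPKM in Biotin-negative libraries, against 29.3, 27.9 and 29.0 FPKM in Biotin-positive libraries. The groups did not overlap, the ratio of the means was 1.29 and the difference 0.35 (SE 0.035, limma adjusted p = 2.41e-05). A difference of this size or less was seen in 54.9% of tested genes.

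Wwc1 (chromosome 11, 35838400 to 35980527), which encodes the WW-domain scaffold KIBRA, was listed at 0, 0.0676 and 0.0795 FPKM in Biotin-negative libraries, against 1.98, 1.90 and 1.86 FPKM in Biotin-positive libraries. It was thus close to 0 in the Biotin-negative group, low in the Biotin-positive group, and without overlap. The difference was 1.47 (SE 0.063, limma adjusted p = 1.49e-07), larger in size than that of 96.9% of tested genes. Wwc1 reached testing only through its Biotin-positive libraries, and the size of the difference hangs on the pseudocount: it was 2.14 with a pseudocount of 0.5 and 3.80 with 0.1. Even in Biotin-positive cells Wwc1 was the lowest of the 10 genes. Its relative Wwc2 was the higher of the WWC genes in both groups and rose from 13.0 ± 0.224 to 17.2 ± 0.448 FPKM (SD, n = 3 each).

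Map4k4 (chromosome 1, 39900913 to 40026310), a kinase that can act on LATS in parallel to MST, was the gene of the set that fell. It stood at 94.7, 88.9 and 94.5 FPKM in Biotin-negative libraries, against 55.5, 52.8 and 53.9 FPKM in Biotin-positive libraries. The groups did not overlap, the ratio of the means was 0.583 and the difference -0.77 (SE 0.036, limma adjusted p = 2.72e-07). The ratio of summed MST to Map4k4 FPKM was 0.263, 0.313 and 0.253 in the Biotin-negative and 0.676, 0.701 and 0.683 in the Biotin-positive libraries (two-sided exact permutation p = 0.1). With the MST sum higher and Map4k4 lower in every Biotin-positive library, this ratio could only be higher, so its p adds no support. Added up, the 10 genes gave 250 ± 3.65 FPKM in the Biotin-negative and 245 ± 3.34 FPKM in the Biotin-positive group (SD, n = 3 each; two-sided exact permutation p = 0.2).

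**Figure D3:**
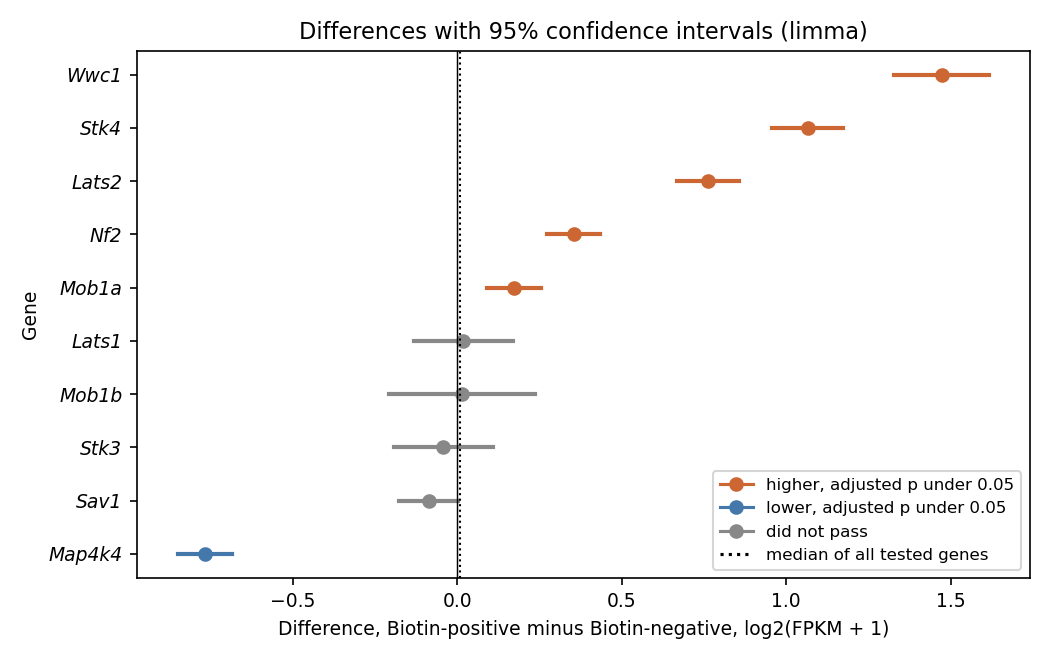
Difference between Biotin-positive and Biotin-negative libraries on the log2(FPKM + 1) scale for the 10 genes (points) with 95% confidence intervals from limma (lines). The dotted line is the median of all tested genes, 0.0099, and the intervals of Stk3, Lats1, Sav1 and Mob1b cross 0.

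In the order of levels, Biotin-negative cells had Map4k4 at the top with 92.7 ± 3.32 FPKM, then Mob1a, Sav1, Nf2, Stk3, Lats2, Stk4, Mob1b, Lats1 and Wwc1. Lats2 and Stk4 overlapped in this group, at 10.1 ± 0.186 and 10.1 ± 0.477 FPKM, and each of the other neighbours in the order was apart in every library. In Biotin-positive cells Mob1a was at the top with 64.5 ± 1.32 FPKM, ahead of Map4k4 with 54.1 ± 1.38 FPKM. Sav1 and Nf2 followed at 29.9 ± 0.898 and 28.7 ± 0.707 FPKM and overlapped. Stk4 and Lats2 both stood above Stk3 in this group, at 22.2 ± 0.575, 17.9 ± 0.390 and 14.9 ± 0.192 FPKM (all SD, n = 3). Mob1b, Lats1 and Wwc1 closed the order in both groups. By mean level over all libraries Map4k4 lay at the 93.2 percentile of tested genes, Mob1a at 91.2 and Sav1 at 79.7, while Lats1 lay at 23.9 and Wwc1 at 1.41.

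The genes next to the members along the chromosome did not all share their direction. Genes that overlap a member, such as Tomm34 and Atl1, were left out here. Of the 20 nearest neighbours in the file without overlap, 1 on each side, 13 were tested, of which 7 rose, 3 fell and 3 did not pass. Over all tested genes 37.8% rose and 36.1% fell. Pcmt1, a protein-repair methyltransferase gene that lies 78 bases from Lats1, rose from 8.89 ± 1.49 to 14.7 ± 0.795 FPKM, while Lats1 did not pass. Dck, the deoxycytidine kinase gene 776 bases from Mob1b, rose from 8.90 ± 0.207 to 17.7 ± 0.532 FPKM, while Mob1b did not pass. Mthfd2, a mitochondrial folate enzyme gene 108 bases from Mob1a, fell from 88.9 ± 3.16 to 81.0 ± 1.02 FPKM, while Mob1a rose. Beside Wwc1, the arginyl-tRNA synthetase gene Rars rose from 51.6 ± 1.48 to 80.9 ± 2.26 FPKM and Tenm2 was at 0.0764 ± 0.0221 and 0.0219 ± 0.00990 FPKM (all SD, n = 3), below the level for testing. The differences between a member and its neighbour were not tested.

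Other genes of the pathway were read from the same fit in 8 lists by role. Of 88 listed genes 64 were tested, of which 31 rose, 18 fell and 15 did not pass. These are 48.4% and 28.1% of those tested, against 37.8% and 36.1% of all tested genes, with a median difference of 0.10. After quantile normalization 31 rose and 21 fell, and after rescaling to an equal FPKM sum 29 rose and 21 fell.

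Each list below is small, with 16 tested genes at most, and stands beside the same 37.8% and 36.1% of all tested genes. In the list of upstream kinases 5 of 10 tested genes rose, 3 fell and 2 did not pass. Stk11, among those that fell, encodes LKB1, which is not a relative of Map4k4 and the MST kinases. Without it 5 of 9 rose and 2 fell. Stk10 rose from 5.19 ± 0.102 to 7.46 ± 0.150 FPKM and Taok3, a kinase that can activate MST and LATS, from 8.30 ± 0.555 to 11.4 ± 0.444 FPKM. Mink1, a close relative of Map4k4, fell from 15.5 ± 0.563 to 11.1 ± 0.466 FPKM (SD, n = 3 in each case). The NDR kinases are relatives of LATS that also bind MOB proteins. Of 5 tested genes of the NDR and MOB list, Stk38 fell from 15.5 ± 0.177 to 13.3 ± 0.779 FPKM, Mob3a rose from 7.63 ± 0.172 to 8.78 ± 0.211 FPKM, and 3 did not pass.

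STRIPAK is a phosphatase complex that removes phosphate from MST kinases. Of 15 tested genes of it and its kinases, 8 rose, 5 fell and 2 did not pass. Some of these calls were near the threshold: Strn (higher) lost its call in 10 of 15 alternatives, Slmap (higher) in 7 of 16 and Strn3 (lower) in 5 of 16, leave-one-out fits among them for each. Ppp2r1a (higher) went to -0.0020 after quantile normalization. Pdcd10 rose from 10.9 ± 1.09 to 16.0 ± 1.44 FPKM. The kinase gene Stk25 fell from 42.0 ± 0.825 to 28.2 ± 2.68 FPKM (SD, n = 3 in each case). Of the membrane and junction inputs 8 of 19 were tested, and 5 rose and 3 fell. The angiomotins, which bind YAP and NF2, went both ways: Amotl2 rose from 51.1 ± 1.80 to 83.4 ± 2.01 FPKM and Amotl1 fell from 34.4 ± 0.946 to 21.7 ± 0.449 FPKM. Amot, at a low level, rose as well, from 1.79 ± 0.307 to 3.51 ± 0.311 FPKM. The phosphatase gene Ptpn14 rose from 4.91 ± 0.200 to 7.09 ± 0.198 FPKM (SD, n = 3).

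Several RASSF proteins bind MST kinases through a shared domain, which Rassf7 and Rassf8 of this list lack. Of 5 tested genes 3 rose, Rassf5 fell (2.79 to 2.09 FPKM) and 1 did not pass. Rassf1 rose from 23.2 ± 0.511 to 40.4 ± 1.81 FPKM, Rassf7 from 7.94 ± 1.13 to 13.3 ± 1.22 FPKM and Rassf3 from 4.97 ± 0.124 to 6.34 ± 0.260 FPKM. Among the LIM-domain proteins that inhibit LATS, Ajuba rose from 11.4 ± 0.209 to 17.9 ± 0.860 FPKM, Limd1 fell from 26.0 ± 0.640 to 15.3 ± 0.144 FPKM (SD, n = 3). Zyx did not pass, with means of 47.6 and 45.0 FPKM, but was lower after quantile normalization (-0.16, limma adjusted p = 0.0212) and after rescaling to an equal FPKM sum (-0.14, adjusted p = 0.0352). Leaving out Biotin-positive replicate 1 also gave a lower call for Zyx (-0.13, limma adjusted p = 0.0305).

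Of 16 tested ligases, casein kinases and 14-3-3 genes 7 rose, 3 fell and 6 did not pass. Csnk1d and Cul4a, which did not pass, were lower after quantile normalization (limma adjusted p = 0.0108 and 0.0119) and after rescaling to an equal FPKM sum (limma adjusted p = 0.0106 and 0.00804). Dcaf1 and Nedd4l did not pass either but were higher without Biotin-negative replicate 1 (limma adjusted p = 0.0449 and 0.0242). Dcaf1 was also higher after quantile normalization (limma adjusted p = 0.0367). All 6 Ywha genes, which encode 14-3-3 proteins that hold phosphorylated YAP in the cytoplasm, rose (a group picked out after its values were seen), among them Ywhah from 118 ± 2.84 to 177 ± 4.36 FPKM and Ywhae from 265 ± 5.11 to 371 ± 8.19 FPKM. The seventh riser was Btrc, a ubiquitin ligase subunit gene, from 5.56 ± 0.128 to 7.97 ± 0.593 FPKM. Of the substrates, Wwtr1, the TAZ gene, fell from 21.0 ± 0.653 to 18.0 ± 0.252 FPKM (SD, n = 3) where Yap1 rose. Krt7 and Krt8 were higher and 8 of 10 tested fibroblast markers were lower in the Biotin-positive libraries. The part of these shifts in the counts was not tested.

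**Figure D4:**
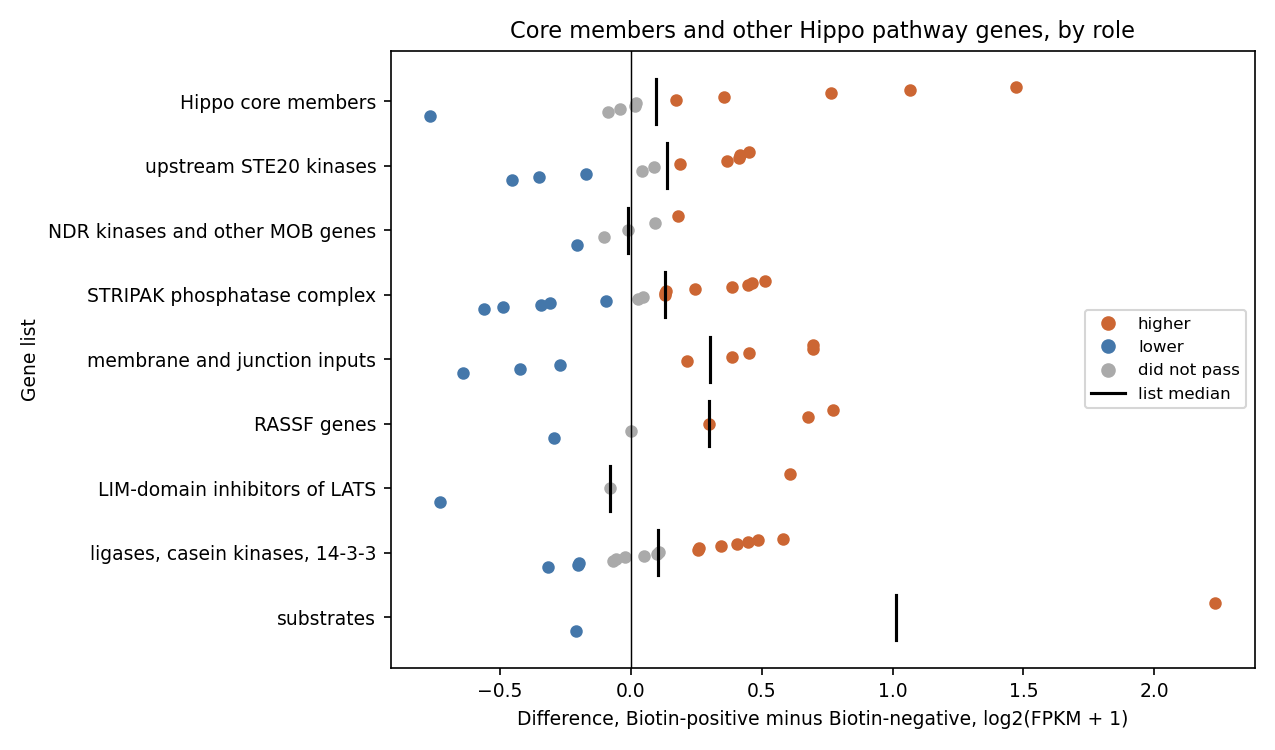
Difference between Biotin-positive and Biotin-negative libraries on the log2(FPKM + 1) scale, 1 point per tested gene, for the 10 core members and the 8 lists of other Hippo pathway genes; black lines are list medians. Every list holds genes on both sides of 0, and Yap1, at 2.23, lies farthest out.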

How the data were processed

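RNA-seq of 6 L929 libraries, 3 per group, was analysed. The deposited values are FPKM per gene, 1 column per library. Per the submitters' processing notes, cutadapt 1.9.1, HISAT2 2.2.1, HTSeq 0.6.1 and GRCm39 were used. The program that made the FPKM, its denominator and the strandedness are not given in the sources used here. The gene coordinates in the file are identical to GENCODE vM21 on GRCm38 for 21687 of 21887 shared genes (99.1%), so coordinates are given as GRCm38. Reads per library are unknown, so depth is unknown and no counting interval is given.

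The 11029 genes that reached 1 FPKM in 3 or more libraries were tested on log2(FPKM + 1) with limma 3.58.1 in R 4.3.3, using its trended eBayes and two-sided p-values. Adjustment was by Benjamini and Hochberg over those genes. Intervals are limma's at 95%. Shares, sums and ratios were compared with exact permutation tests in scipy 1.17.1, 9 in all. Only the tests of paralog shares were planned, and the sums and ratios combine genes that were also compared singly. Their adjusted values are not given, since 0.1 is the smallest p possible. Sequence matches used blastn 2.17.0 and biopython 1.88. The procedure was tested on simulated data. Members and lists were chosen with earlier results of these data known. All members are named, with Yap1 and Wwtr1 and up to 3 called genes per list with the largest change and at least 5 FPKM, or, where none is called, the 2 highest, plus the tested epithelial and the highest fibroblast markers. A gene that this rule names is not reported here. Rassf5, Zyx, Wwc2, Amot, Stk11, Strn, Strn3, Slmap, Ppp2r1a, Csnk1d, Cul4a, Dcaf1 and Nedd4l were named after values were seen. The leukocyte markers and the neighbouring and overlapping genes were also named after values were seen. Other pseudocounts, filters, scalings, eBayes settings, a replicate block and leaving out each library were tried as alternatives.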

Additional observations from a re-analysis of the deposited data

How the results depend on the processing

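Alternatives were other pseudocounts, filters, scalings and eBayes settings, the replicate number as a block, and leaving out each library. Stk4, Lats2, Nf2 and Map4k4 kept their direction and call under all 16, and Wwc1 under the 15 that could test it. At a minimum of 5 FPKM Wwc1 and Lats1 were not tested. The number of members that fell was 2 instead of 1, through Sav1, after quantile normalization and after rescaling to an equal FPKM sum, and ranged from 1 to 2 when 1 library was left out. The median member difference was 0.040 after rescaling to an equal sum and ranged from 0.068 to 0.16 when 1 library was left out. The median over all tested genes was -0.045 after that rescaling and ranged from 0.0013 to 0.016 when 1 library was left out. Ppp2r1a, a STRIPAK subunit gene that rose by 0.13, changed sign to -0.0020 after quantile normalization. The replicate block left the members at 5 higher and 1 lower and gave 29 higher and 18 lower in the wider lists. With it 4113 of all tested genes were higher and 3927 lower, against 4168 and 3985 without. Strn, Slmap and the marker Cd68 lost their calls under the block. The labels do not state whether same-numbered libraries belong together. Deviations of same-numbered libraries correlated at 0.037, 0.012 and 0.014. These values show little shared spread, but they cannot tell whether the libraries were prepared in pairs. The cause of these changes was not tested. The unknown depth limits what can be said of Wwc1 near 0.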
